A study of Mus musculus with 8 samples.

Results

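Imprinted genes are expressed from only the maternal or only the paternal copy. A fixed list of 42 of them was followed over 8 microarrays of mouse embryonic stem (ES) cells, and 41 had probes under their names, of 34736 names on the array. Rian, a maternal noncoding RNA, had none. Of the 41, 14 are known as expressed from the maternal copy and 24 from the paternal copy. For the other 3 (Gnas, Blcap and Inpp5f) imprinting depends on the isoform. Whether the probes of these 3 genes read an imprinted isoform was not worked out. Grb10, Ube3a, Ppp1r9a, Asb4 and Dio3 were marked as members whose expressed copy also depends on the tissue, and these marks may not be complete. The 82 probes of these genes filled 100 spots per array, and all 41 genes passed the filter on dim probes used for every gene, so none had to differ between groups to be included. The arrays measured the RNA of both copies together and did not tell the parental copies apart.

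The cultures were labelled wild type (WT) or heterozygous for Nkx25 R141C, a missense change in Nkx2-5, a homeobox transcription factor of the early heart. They were taken at day 0, as ES cells, or at day 6 of differentiation through embryoid bodies, which were grown without LIF in hanging drops, then in suspension, and last plated on gelatin. Each of the 4 groups (WT day 0, R141C day 0, WT day 6, R141C day 6) had 2 cultures, called replicates 1 and 2. The labels name no line or clone and do not say how the cultures were kept apart, so the p-values below measure the spread between these cultures. All arrays lay on a single slide and came from a single scan, with each group at its own positions, so position and group cannot be told apart.

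Imprinting is set in the germ line by DNA methylation of control regions, which keeps 1 parental copy silent in the embryo. Most imprinted genes sit in clusters in which a single control region governs coding genes and a long noncoding RNA, as for H19 and Igf2, Airn and Igf2r, or Meg3 and Dlk1. Many of them set growth: Igf2 is a growth factor, Igf2r clears it, Grb10 dampens the receptors of insulin and insulin-like growth factors, and Cdkn1c is a cell cycle inhibitor. In cultured ES cells the methylation and expression of imprinted genes are known to vary between lines and subclones.

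Levels below are log2 processed signals on a scale where every array's 75th percentile is 0. A gene was read from its brightest probe, and levels of different genes are not compared with each other. Between 30989 and 39185 of 55583 probes per array (55.8% to 70.5%) were well above background. The 8 markers of pluripotent cells gave a summed log2 signal of 8.51 to 9.14 at day 0 and 5.96 to 6.75 at day 6. The 8 cardiac markers gave 2.41 to 5.21 at day 0, 8.02 and 8.36 in WT at day 6, and 3.88 and 6.79 in R141C at day 6, so R141C day 6 replicate 1 stayed within the day 0 range. In bulk RNA fewer cells of a type and less RNA per cell cannot be told apart. The probe for Nkx2-5 measured the transcript and did not show the mutation. It read -1.27 and -2.02 in WT and 1.84 and -0.77 in R141C at day 0, and 1.93 and 1.79 in WT and 1.53 and 1.58 in R141C at day 6.

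Sequences of some genes and probes described below are shown first, and no relation between sequence and signal was tested. Peg3 and Usp29, which moved together, are read in opposite directions from starts that face away from each other, and the RefSeq starts (build GRCm38.p6) leave 163 bases between them, given here on the plus strand with the 5 CG dinucleotides in capitals.
Peg3 and Usp29 shared stretch (chr7:6730420-6730582, plus strand): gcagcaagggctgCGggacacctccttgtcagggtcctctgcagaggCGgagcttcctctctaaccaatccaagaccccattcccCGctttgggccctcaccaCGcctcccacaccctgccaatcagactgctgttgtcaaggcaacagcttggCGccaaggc
ZFP57, a zinc finger protein that keeps imprints in ES cells, binds the hexamer TGCCGC when its CG is methylated. This hexamer was searched on both strands in the 250 bases before the RefSeq starts of 37 members (56 windows, since a gene can have several starts), and GCGGCA is its reverse complement. It was present in 8 windows (14.3%) of 7 members, against 8.68% of the 32851 windows of all genes in the same table. The 7 were Mcts2, Meg3, Mest, Nap1l5, Plagl1, Zdbf2 and Zim1. Among windows of paternal members 6 of 33 held it (18.2%), and among those of maternal members 2 of 17 (11.8%). These counts include overlapping windows of Mest that hold the same hexamers. The hexamer contains a CG, and the median window held 10 CG dinucleotides in members against 6 over all genes. The shares were not matched for CG content, so they do not show whether the hexamer itself is more frequent in members. The windows of Mest, Plagl1 and Meg3 are printed 5′ to 3′ on the strand of the gene, with the hexamer in capitals, because these genes carry a rise, the largest genotype difference and a culture difference described below. A match is a description of the letters and was not read as a bound site.
Mest promoter (chr6:30737800-30738049, plus strand): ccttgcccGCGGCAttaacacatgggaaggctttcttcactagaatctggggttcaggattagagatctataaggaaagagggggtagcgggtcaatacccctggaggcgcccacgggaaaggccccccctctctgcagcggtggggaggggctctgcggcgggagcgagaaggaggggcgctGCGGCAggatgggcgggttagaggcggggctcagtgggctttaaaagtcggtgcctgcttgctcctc
Plagl1 promoter (chr10:13090582-13090831, plus strand): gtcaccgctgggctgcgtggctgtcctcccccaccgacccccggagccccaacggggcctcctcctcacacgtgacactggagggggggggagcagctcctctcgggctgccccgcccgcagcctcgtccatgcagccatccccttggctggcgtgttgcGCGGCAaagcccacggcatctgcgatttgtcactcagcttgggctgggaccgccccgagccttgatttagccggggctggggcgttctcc
Meg3 promoter (chr12:109540746-109540995, plus strand): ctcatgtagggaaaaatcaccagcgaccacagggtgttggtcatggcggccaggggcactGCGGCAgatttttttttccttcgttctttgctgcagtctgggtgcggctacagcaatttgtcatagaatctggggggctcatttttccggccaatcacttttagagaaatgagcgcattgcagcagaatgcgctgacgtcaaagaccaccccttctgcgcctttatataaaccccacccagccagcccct
Probes of 2 noncoding RNAs are printed because different probes of Mirg gave different genotype differences, and because the 7 probes of H19 gave the most repeated reading of a rise. Mirg is the microRNA-containing transcript at the distal end of the Dlk1-Dio3 cluster. Positions are those of the array design on build mm9, and the sequences are the deposited probe sequences.
Mirg probe A_55_P2048867 (chr12:110968992-110969051, plus strand): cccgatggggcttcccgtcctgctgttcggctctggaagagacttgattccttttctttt
Mirg probe A_55_P2336173 (chr12:110979653-110979712, plus strand): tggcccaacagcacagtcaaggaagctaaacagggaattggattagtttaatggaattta
Mirg probe A_66_P121059 (chr12:110987569-110987628, plus strand): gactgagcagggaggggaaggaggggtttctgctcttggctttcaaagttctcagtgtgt
H19 probe A_55_P1961127 (chr7:149761492-149761551, minus strand): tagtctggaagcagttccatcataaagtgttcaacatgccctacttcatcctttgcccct

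From day 0 to day 6, the members of the list that changed past the threshold rose. In WT cultures 14 of the 41 members rose (34.1%), where 24.0% of the 25892 tested genes changed in either direction, 11.0% rising and 12.9% falling. Tested genes are array names, and 22344 of the 34736 names on the array are current gene symbols. The tested genes were not matched to the members in signal. The median difference of the members was 0.93 on the log2 scale, against -0.1175 over all tested genes, and 33 members lay above 0 and 8 below. In R141C cultures 11 members rose (26.8%), where 15.6% of all genes changed, 7.60% rising and 8.03% falling, and the median was 0.79 against -0.0284. The days did not overlap for 34 members in WT, 29 higher and 5 lower at day 6, and over all genes for 71.3%, 29.8% higher and 41.5% lower. In R141C they did not overlap for 25 members, 19 higher and 6 lower, and over all genes for 56.0%, 25.6% higher and 30.4% lower. No member fell past the threshold in either genotype in limma (adjusted p under 0.05). At an unadjusted p under 0.05 there were 17 members in WT (37.8% of all genes), with Ascl2 (-1.0) and Zdbf2 (-0.85) lower, and 15 in R141C (30.5% of all genes), with Plagl1 (-1.02) lower. Asb4, H19, Igf2r, Mest, Peg12, Peg3, Rasgrf1, Sgce, Slc38a4 and Usp29 rose in both genotypes, which makes 10 genes, 71.4% of the WT calls and 90.9% of the R141C calls. Over all genes, calls in the same direction made up 52.9% and 81.1%.

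The counts depended on single arrays. In WT, leaving out day 6 replicate 1 gave 9 called members, and leaving out day 6 replicate 2 gave 7. In R141C, leaving out day 0 replicate 1 gave 5 and leaving out day 0 replicate 2 gave 6. With only the 4 arrays of R141C 7 members were called. Leaving out each array in turn, Airn, Asb4, H19, Peg3, Rasgrf1, Sgce and Usp29 were called in WT in all 8 fits, and Asb4, Inpp5f and Usp29 in R141C.

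**Figure D1:**
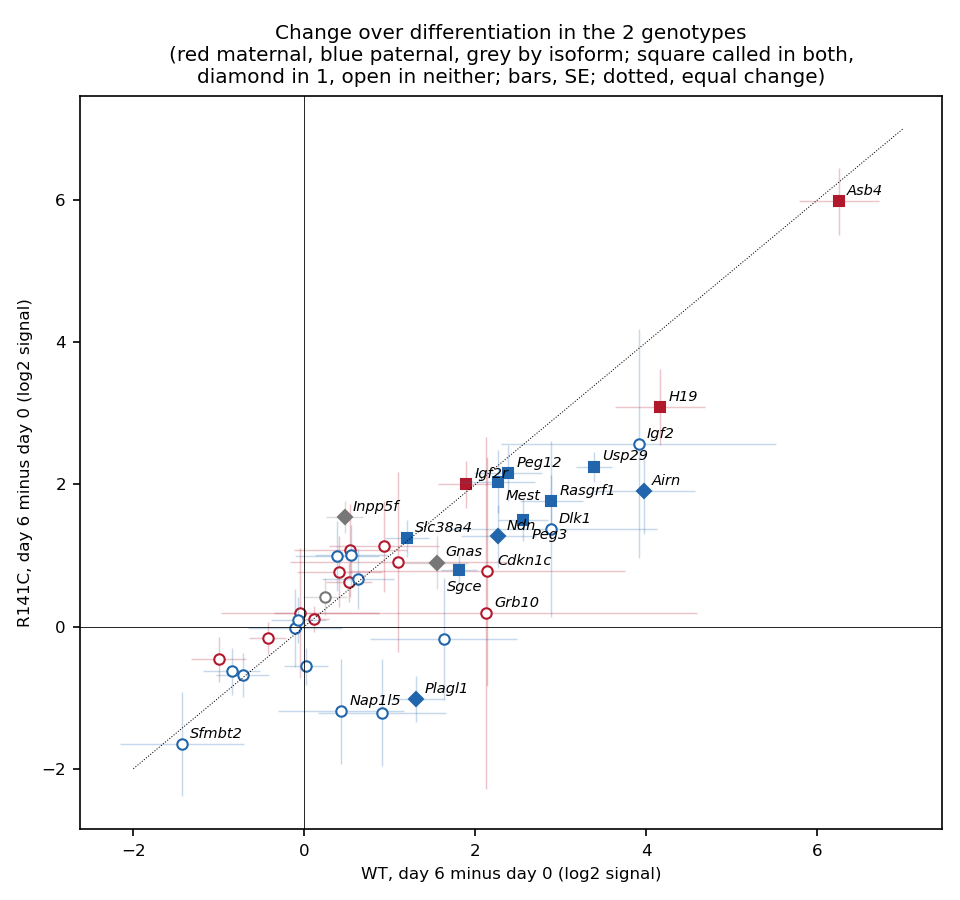
Change of 41 imprinted genes from day 0 to day 6 in WT (horizontal axis, log2 signal) against R141C (vertical axis, log2 signal). Each point is 1 gene, red for maternal, blue for paternal and grey for isoform-dependent expression, squares were called in both genotypes, diamonds in 1 and open points in neither, and bars are standard errors. Asb4 lies far to the upper right (6.25 and 5.98), and Plagl1 is above 0 in WT (1.31) and below 0 in R141C (-1.02).

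Asb4, which encodes an ankyrin repeat protein of ubiquitin ligase complexes and lies beside Peg10, gave the largest rise of the members. Its probe (chr6:5382886-5382945, mm9) read -3.15 and -3.05 in WT and -2.29 and -3.25 in R141C at day 0, and 3.22 and 3.07 in WT and 2.57 and 3.83 in R141C at day 6. All day 6 arrays were above all day 0 arrays, with no overlap. The rise was 6.25 in WT (SE 0.47, 76.0-fold, adjusted p = 0.000599) and 5.98 in R141C (SE 0.47, 62.9-fold, adjusted p = 0.00111). A dimmer second probe rose by 1.37 and 1.92. The neighbour Sgce, epsilon-sarcoglycan, went from 0.85 and 0.59 in WT and 1.34 and 1.36 in R141C at day 0 to 2.57 and 2.48 in WT and 2.30 and 1.97 in R141C. It rose by 1.81 in WT (SE 0.21, adjusted p = 0.00214) and 0.79 in R141C (SE 0.21, adjusted p = 0.0481), and the R141C call was lost in each of the 8 fits that left out an array. Peg10, a gene derived from a retrotransposon and needed in the placenta, was not called (0.38 in WT and 0.99 in R141C). Ppp1r9a, which encodes neurabin, ranged from 0.23 to 1.23 over the 8 arrays.

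H19, the maternal noncoding RNA whose silent copy allows Igf2 to be expressed, rose in both genotypes. It read 4.12 and 3.34 in WT and 5.69 and 4.69 in R141C at day 0, and 7.54 and 8.24 in WT and 8.86 and 7.69 in R141C at day 6. All day 6 arrays were above all day 0 arrays, and at day 0 both R141C arrays were above both WT arrays. The rise was 4.16 in WT (SE 0.53, 17.9-fold, adjusted p = 0.00319) and 3.09 in R141C (SE 0.53, 8.49-fold, adjusted p = 0.0130). Of the 7 probes, 6 rose by 4.16 to 4.96 in WT and by 3.09 to 3.54 in R141C, and the dimmest, A_55_P1961125, by 1.12 and 1.25. Igf2 (probe at chr7:149839661-149839720, mm9), the paternal growth factor that shares enhancers with H19, varied widely between cultures of a group. It read -1.90 and -3.95 in WT and -4.23 and -1.60 in R141C at day 0, and 1.07 and 0.90 in WT and -2.75 and 2.07 in R141C at day 6. The WT groups did not overlap, and R141C day 6 replicate 1 lay within the day 0 range. The difference of 3.91 in WT (SE 1.61, adjusted p = 0.127) and of 2.57 in R141C (SE 1.61, adjusted p = 0.333) did not pass.

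Both members of the Igf2r cluster were higher at day 6 in WT. Igf2r, the receptor that clears the growth factor, read 1.99 and 1.80 in WT and 1.92 and 2.28 in R141C at day 0, and 3.81 and 3.77 in WT and 3.62 and 4.58 in R141C at day 6. It rose by 1.89 in WT (SE 0.33, 3.72-fold, adjusted p = 0.00946) and 2.0 in R141C (SE 0.33, 4.0-fold, adjusted p = 0.0113). Airn, the paternal noncoding RNA that overlaps Igf2r on the opposite strand, read -1.65 and -2.02 in WT and -1.34 and 0.27 in R141C at day 0, and 1.5 and 2.76 in WT and 1.49 and 1.24 in R141C at day 6. Days did not overlap within a genotype. Airn rose by 3.97 in WT (SE 0.60, 15.7-fold, adjusted p = 0.00542), and the 1.90 in R141C did not pass (SE 0.60, adjusted p = 0.0795). Over its 4 probes, of which 1 was not well above background on any array, the WT difference ran from 1.51 to 4.97.

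Peg3 and Usp29, the paternal genes read from the shared stretch printed above, rose in both genotypes. Peg3, a large zinc finger protein, read 0.06 and 0.10 in WT and 0.83 and 0.12 in R141C at day 0, and 2.48 and 2.82 in WT and 2.15 and 1.80 in R141C at day 6. Usp29 (probe at chr7:6919806-6919865, mm9), a ubiquitin-specific protease, read -4.61 and -4.92 in WT and -4.09 and -4.01 in R141C at day 0, and -1.52 and -1.23 in WT and -1.73 and -1.87 in R141C at day 6. For both genes the order of the 4 group means was the same: WT day 0 lowest, then R141C day 0, R141C day 6 and WT day 6. On the dimmer second probe of Peg3 the genotypes overlapped at day 6, with a difference of -0.04. Peg3 rose by 2.56 in WT (SE 0.29, 5.91-fold, adjusted p = 0.00208) and 1.5 in R141C (SE 0.29, 2.83-fold, adjusted p = 0.0186). Usp29 rose by 3.39 in WT (SE 0.21, more than 10-fold, adjusted p = 0.000390) and 2.25 in R141C (SE 0.21, 4.76-fold, adjusted p = 0.00175). Zim1, the maternal zinc finger gene beside them, ranged from -5.17 to -0.68 and was not called (1.1 and 0.91).

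Among the other paternal genes, Mest, a hydrolase family member of mesoderm, read 4.80 and 3.49 in WT and 4.01 and 4.37 in R141C at day 0, and 6.15 and 6.66 in WT and 6.05 and 6.41 in R141C at day 6. It rose by 2.26 in WT (SE 0.44, 4.79-fold, adjusted p = 0.0135) and 2.04 in R141C (SE 0.44, 4.12-fold, adjusted p = 0.0266), and its 3 probes rose by 1.95 to 2.26 and by 1.87 to 2.16. Slc38a4, an amino acid transporter, read 3.52 and 3.02 in WT and 3.16 and 3.5 in R141C at day 0, and 4.39 and 4.56 in WT and 4.42 and 4.73 in R141C at day 6. Its rise was nearly equal in the genotypes, 1.20 (SE 0.26, adjusted p = 0.0178) and 1.24 (SE 0.26, adjusted p = 0.0227). Rasgrf1, an exchange factor that activates Ras, was dim: -5.44 and -5.70 in WT and -5.56 and -5.33 in R141C at day 0, and -2.66 and -2.71 in WT and -4.25 and -3.12 in R141C at day 6. It rose by 2.89 in WT (SE 0.37, 7.42-fold, adjusted p = 0.00303) and 1.76 in R141C (SE 0.37, 3.39-fold, adjusted p = 0.0233).

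In the cluster around Snrpn, on a part of chromosome 7 linked in people to the Prader-Willi and Angelman syndromes, 2 of 6 members rose in WT. Peg12, a paternal relative of the Frat regulators of Wnt signalling, read -1.0 and -0.42 in WT and -1.16 and -0.13 in R141C at day 0, and 1.58 and 1.76 in WT and 1.25 and 1.78 in R141C at day 6. It rose by 2.38 in WT (SE 0.40, adjusted p = 0.00789) and 2.16 in R141C (SE 0.40, adjusted p = 0.0156). Ndn, which encodes necdin, read 0.30 and -0.29 in WT and 0.15 and 0.61 in R141C at day 0, and 2.19 and 2.36 in WT and 1.0 and 2.29 in R141C at day 6. It rose in WT by 2.27 (SE 0.44, adjusted p = 0.0133), and the 1.27 in R141C did not pass (SE 0.44, adjusted p = 0.105). Snrpn, a spliceosome protein, read 3.59 and 3.92 in WT and 3.58 and 3.18 in R141C at day 0, and 3.19 and 2.89 in WT and 2.34 and 3.07 in R141C at day 6. Its differences of -0.72 and -0.68 did not pass (adjusted p = 0.140 and 0.194). Magel2 and Mkrn3 ranged from 0.32 to 2.23 and from -1.56 to 0.08, and Ube3a, the maternal ubiquitin ligase, from 0.23 to 0.75; none of these was called.

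Gnas, the stimulatory G protein gene with differently imprinted isoforms, rose in WT. Its brightest probe read 5.18 and 5.12 in WT and 4.95 and 5.90 in R141C at day 0, and 6.69 and 6.72 in WT and 5.97 and 6.67 in R141C at day 6. The rise was 1.55 in WT (SE 0.37, adjusted p = 0.0251), and the 0.90 in R141C did not pass (SE 0.37, adjusted p = 0.152). The other 3 Gnas probes, which lie on transcripts with other accessions, differed by -0.15 to 2.93 in WT. Inpp5f, a phosphoinositide phosphatase, was called in R141C alone. It read -1.57 and -1.49 in WT and -1.57 and -1.47 in R141C at day 0, and -1.21 and -0.90 in WT and 0.21 and -0.17 in R141C at day 6. The rise was 1.54 in R141C (SE 0.22, 2.91-fold, adjusted p = 0.00689) against 0.47 in WT (SE 0.22, adjusted p = 0.169), and the test of the difference between genotypes gave 1.07 (SE 0.31, adjusted p = 0.761). These values are those of the brighter probe. A dimmer probe, on a transcript with another accession, was well above background on only 3 arrays. It differed by 0.18 in R141C and -0.7 in WT, and with the probes averaged Inpp5f was not called in R141C.

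The Kcnq1 cluster had no call among its 6 members in either genotype, with medians of 0.03 and 0.15. Tssc4 was the steadiest of the 41 members: 3.43 and 3.45 in WT and 3.46 and 3.41 in R141C at day 0, and 3.42 and 3.67 in WT and 3.54 and 3.56 in R141C at day 6. Cdkn1c, the cell cycle inhibitor of the same cluster, was among the least steady, with 3.75 and 1.93 in WT and 1.08 and 3.76 in R141C at day 0, and 5.27 and 4.69 in WT and 0.76 and 5.63 in R141C at day 6. Kcnq1ot1, the paternal noncoding RNA of the cluster, ranged from -1.98 to -0.59, and Ascl2, a transcription factor of the trophoblast, from 0.55 to 2.13. Phlda2, which restrains placental growth, ranged from 1.44 to 3.93 and the transporter Slc22a18 from -2.39 to 0.64. The Dlk1-Dio3 cluster had no call either, with medians of 1.28 and 0.95 over 4 members. Dlk1, a transmembrane relative of Notch ligands, read 1.96 and 1.99 in WT and 2.72 and 2.21 in R141C at day 0, and 5.06 and 4.66 in WT and 1.61 and 6.05 in R141C at day 6. Its difference of 2.88 in WT did not pass (SE 1.24, adjusted p = 0.140). The WT days did not overlap, and the R141C day 6 cultures were 4.45 apart. With only the 4 WT arrays the difference passed (adjusted p = 0.00554), as did that of Igf2 (3.91, adjusted p = 0.0324).

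Several members outside these clusters did not pass the threshold over time. Blcap read 3.37 and 3.17 in WT and 3.65 and 3.10 in R141C at day 0, and 3.56 and 3.46 in WT and 3.99 and 3.59 in R141C at day 6. Mcts2, a retrogene, read 3.98 and 4.2 in WT and 4.31 and 3.52 in R141C at day 0, and 3.92 and 4.13 in WT and 4.26 and 3.74 in R141C at day 6. Impact, a regulator of translation, read 4.81 and 4.61 in WT and 5.40 and 4.92 in R141C at day 0, and 4.53 and 4.92 in WT and 4.73 and 4.48 in R141C at day 6. Of these 3 genes, Blcap was higher at day 6 without overlap in WT and Impact lower without overlap in R141C, both by less than 1. Zdbf2 read -0.07 and 0.41 in WT and 0.66 and 0.19 in R141C at day 0, and -0.73 and -0.64 in WT and 0.19 and -0.60 in R141C at day 6. Sfmbt2, a Polycomb group protein, read 2.40 and 0.30 in WT and 1.75 and 3.15 in R141C at day 0, and 0.03 and -0.19 in WT and 1.05 and 0.56 in R141C at day 6. Its differences of -1.43 and -1.65 were the lowest of the members (adjusted p = 0.201 and 0.182).

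**Figure D2:**
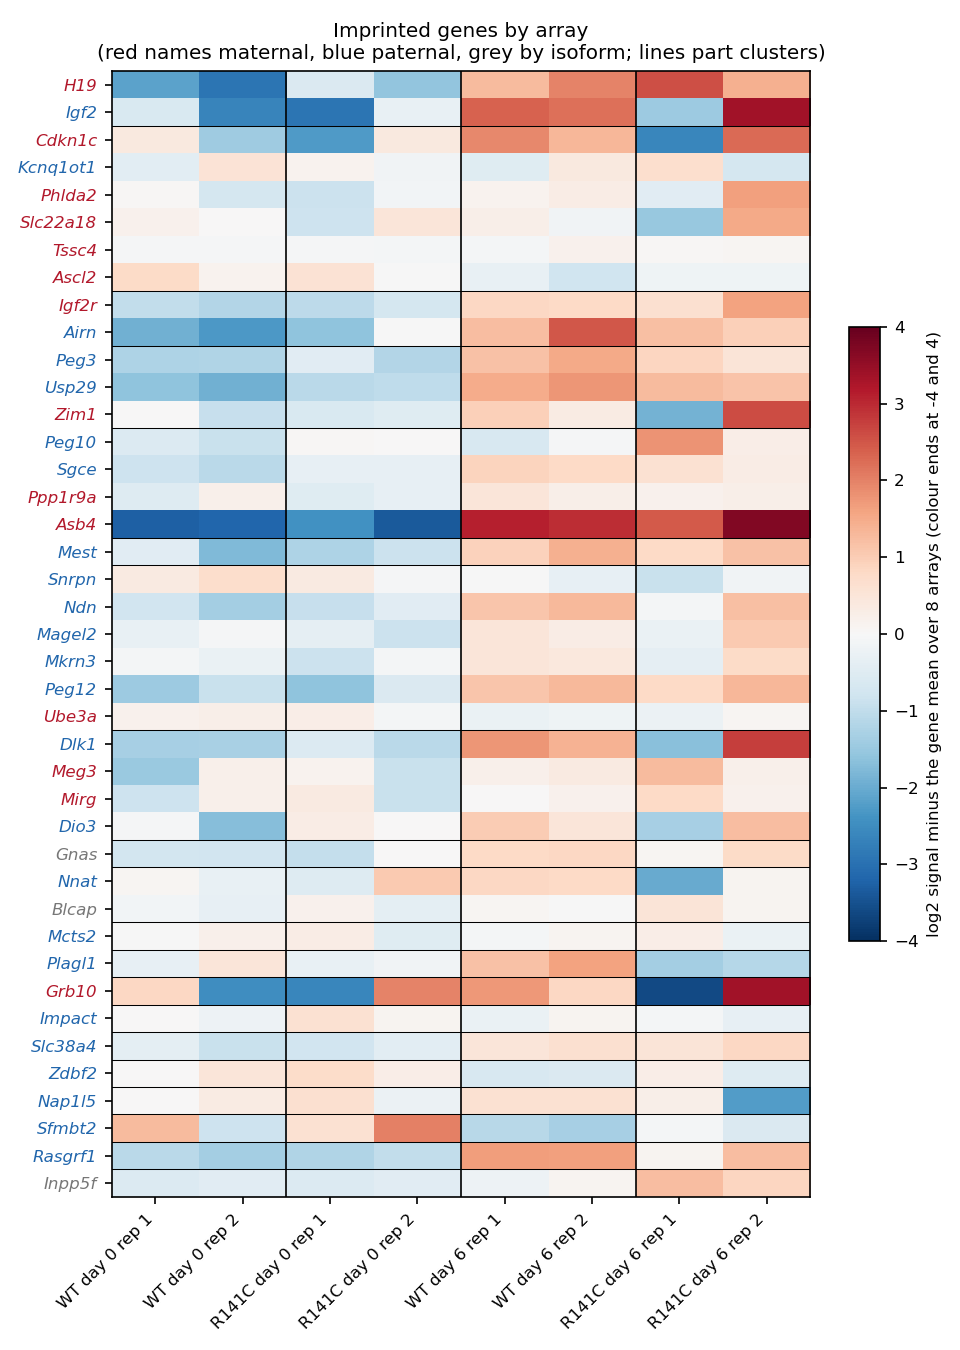
Level of the 41 imprinted genes (rows, by cluster) on each of the 8 arrays (columns, by group and replicate), as log2 signal minus the mean of the gene over the 8 arrays. Gene names in red are maternal, in blue paternal and in grey isoform-dependent. Asb4 turns from blue at day 0 to red at day 6, Tssc4 is pale throughout (range 0.26), and Igf2, Cdkn1c, Zim1, Dlk1, Nnat and Grb10 are blue in R141C day 6 replicate 1 among the day 6 arrays.

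Grouped by the expressed copy, 3 of 14 maternal members rose in WT (Asb4, H19 and Igf2r) with a median difference of 0.74, and 10 of 24 paternal members with a median of 1.26. These are 21.4% and 41.7%, where 24.0% of all genes were called and 11.0% rose. In R141C the same 3 maternal members and 7 of 24 paternal members rose, with medians of 0.77 and 0.89. These are 21.4% and 29.2%, where 15.6% of all genes were called and 7.60% rose. Without the marked members Grb10, Ube3a, Ppp1r9a, Asb4 and Dio3, the counts were 2 of 10 maternal and 10 of 23 paternal in WT. In R141C they were 2 of 10 and 7 of 23. Whether the imprinting of other members also depends on the tissue was not worked out. The difference between the classes was not tested. Within the Igf2r-Airn cluster in WT and the Peg10 cluster in both genotypes, at least 1 gene of each class rose.

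The shifts of the members were set beside those of genes close to them, with no test. Neighbours were the tested names within 500 kb (mm9) that were neither members nor on the list of other imprinted genes described below. No wider catalogue of imprinted genes was applied. The 30 neighbours of H19 and Igf2 had a median WT difference of 0.04, against 4.04 for the 2 members. Around Peg3, Usp29 and Zim1, the 31 neighbours had a median of -0.54, with 2 higher and 12 lower calls, against 2.56 for the 3 members. Around Igf2r and Airn the 28 neighbours had a median of 0.30, with 7 higher and 2 lower calls, against 2.93. Around Rasgrf1 8 neighbours had a median of -0.01 and around Mest 19 neighbours had -0.18. In the Kcnq1 cluster the order was turned: the 20 neighbours had a median of 0.36 in WT and 0.79 in R141C, against 0.03 and 0.15 for the 6 members. Members also lay below the median of their neighbours in WT for Sfmbt2 (-1.43 against -0.19), Zdbf2 (-0.85 against -0.22) and Mcts2 (-0.07 against -0.06). These genes did so in R141C as well. In R141C alone this held for Grb10 (0.19 against 0.47), Plagl1 (-1.02 against -0.26) and Nap1l5 (-1.19 against 0.35). It also held there for Impact (-0.56 against 0.18) and for Nnat and Blcap (-0.4 against -0.05). In the remaining clusters members lay above their neighbours in both genotypes.

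**Figure D3:**
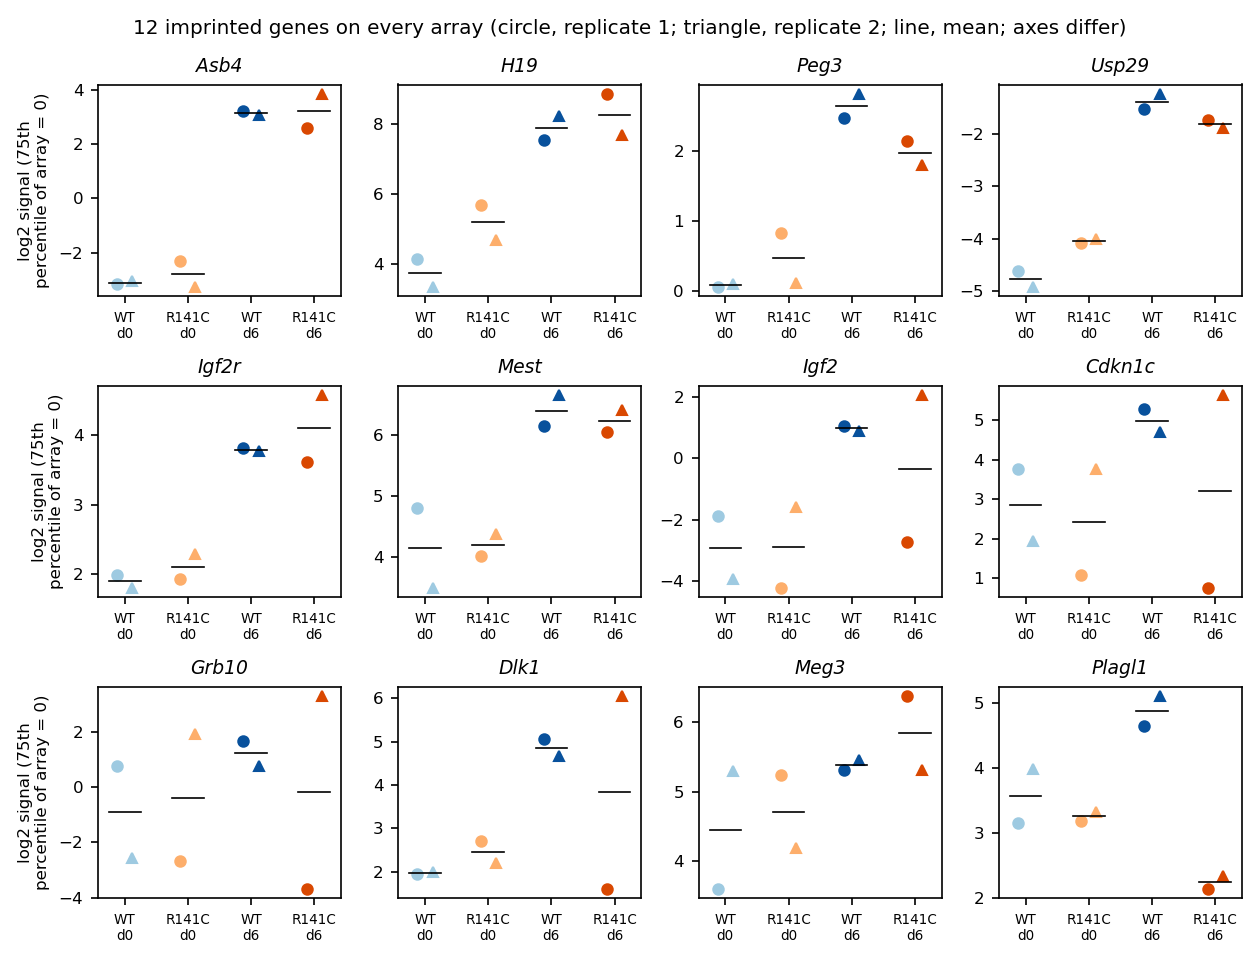
Log2 signal (vertical axes, which differ between panels) of 12 imprinted genes in the 4 groups, with circles for replicate 1, triangles for replicate 2 and lines for the mean of the 2 cultures. Asb4, H19, Peg3, Usp29, Igf2r and Mest separate by day, while in Igf2, Cdkn1c and Grb10 the circle and the triangle of a group lie far apart outside WT day 6. Plagl1 in R141C at day 6 (2.14 and 2.34) lies below every other array.

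At day 6 no imprinted gene differed between R141C and WT past the threshold in limma, where 0.0657% of all genes did (0.0270% higher and 0.0386% lower). At an unadjusted p under 0.05 there were 4 members, Plagl1, Inpp5f, Peg10 and Rasgrf1, and 8.53% of all genes. The groups did not overlap for 15 members, 6 higher and 9 lower in R141C, and for 44.3% of all genes, 27.8% higher and 16.5% lower. The median difference of the members was -0.16, 0.10 for the maternal and -0.36 for the paternal members, and 0.0708 over all genes.

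Plagl1, a paternal zinc finger transcription factor that restrains proliferation, had the smallest p of the members. Its probe (chr10:12850832-12850891, mm9) read 3.15 and 3.98 in WT and 3.19 and 3.33 in R141C at day 0, and 4.65 and 5.11 in WT and 2.14 and 2.34 in R141C at day 6. The day 6 WT arrays were the highest of the 8 and the day 6 R141C arrays the lowest. The difference was -2.64 (SE 0.32), 6.23-fold lower in R141C, with an adjusted p of 0.0740. Across 19 other settings it ran from -2.87 to -1.48, and the adjusted p from 0.0554 to 0.205. In WT it rose from day 0 by 1.31 (SE 0.32, adjusted p = 0.0274), while in R141C it was lower by -1.02 (SE 0.32, adjusted p = 0.0780), and the test of the difference between genotypes gave -2.33 (adjusted p = 0.516). The 2 bright Plagl1 probes share a run of 26 bases, so they repeat each other. They differed by -2.64 and -2.67 at day 6, and the 2 dim probes by -0.46 and -0.14.

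Of the other members without overlap and a difference of at least 1 at day 6, Inpp5f was 1.08 higher in R141C (adjusted p = 0.276). Peg10 read -0.12 and 0.45 in WT and 2.30 and 0.77 in R141C at day 6, a difference of 1.37 (adjusted p = 0.507), after -0.05 and -0.39 in WT and 0.56 and 0.53 in R141C at day 0. Nnat, a membrane proteolipid of neuroendocrine cells, read 2.21 and 2.18 in WT and -0.64 and 1.5 in R141C at day 6, a difference of -1.77 (adjusted p = 0.591), after 1.47 and 1.1 in WT and 0.86 and 2.42 in R141C at day 0. Nap1l5, a relative of nucleosome assembly proteins, read -3.13 and -3.11 in WT and -3.49 and -5.95 in R141C at day 6, a difference of -1.61 (adjusted p = 0.632), after -3.71 and -3.39 in WT and -3.09 and -3.98 in R141C at day 0. Its signal passed the background flag on 1 of these R141C arrays. Rasgrf1, given above, was 1.0 lower in R141C at day 6 (adjusted p = 0.519). For Peg10, Nnat, Nap1l5 and Rasgrf1 a single R141C culture lay much farther from WT than the other.

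At day 0 no member differed between the genotypes in limma, and no gene of the whole table did (0%). Unadjusted p was under 0.05 for H19, Usp29 and Sgce and for 4.50% of all genes, and the members' median was 0.06 against 0.0046. The groups did not overlap for 11 members, 9 higher and 2 lower in R141C, and for 28.8% of all genes, 14.5% higher and 14.3% lower. H19 was 1.46 higher in R141C (SE 0.53, adjusted p = 0.999) and Airn 1.30 higher (SE 0.60, adjusted p = 0.999). Dio3, a deiodinase that inactivates thyroid hormone, read -3.31 and -4.95 in WT and -2.96 and -3.25 in R141C at day 0, a difference of 1.03 (adjusted p = 0.999), and -2.24 and -2.76 in WT and -4.57 and -2.01 in R141C at day 6. The change over time also did not differ between genotypes for any member in limma, nor for any gene (0%). Unadjusted p was under 0.05 for 6 members (Plagl1, Usp29, Sgce, Inpp5f, Peg3 and Airn) and 5.64% of genes.

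Some imprinted genes differed more between the 2 cultures of a group than between groups. The replicates were more than 1 apart for 8 members in WT day 0 (19.5%, against 10.4% of all genes), 10 in R141C day 0 (24.4% against 9.49%), 1 in WT day 6 (2.44% against 3.55%) and 19 in R141C day 6 (46.3% against 12.2%). Over all 8 arrays the members had a median range of 2.75, against 1.17 for all genes. Over the 4 day 6 arrays the range exceeded 2 for 29.3% of members and 5.35% of all genes. Grb10 (probe at chr11:11833165-11833224, mm9), the maternal adaptor that dampens growth factor receptors, had the widest gap of the members. It read 0.75 and -2.56 in WT and -2.69 and 1.90 in R141C at day 0, and 1.65 and 0.77 in WT and -3.68 and 3.28 in R141C at day 6.

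Some members with large gaps moved together. Igf2, Cdkn1c and Grb10 were high in WT day 0 replicate 1, R141C day 0 replicate 2 and R141C day 6 replicate 2, and low in the other culture of those groups, while the maternal RNAs Meg3 and Mirg went the other way. Other members with large gaps in R141C day 6 did not share gaps of this size at day 0. In WT day 0, R141C day 0 and R141C day 6, Dlk1 had gaps of 0.03, -0.51 and 4.45 (replicate 2 minus replicate 1). Zim1 had -0.91, 0.14 and 4.49, and Dio3 had -1.64, -0.28 and 2.55. Meg3 read 3.61 and 5.29 in WT and 5.24 and 4.19 in R141C at day 0, and 5.31 and 5.45 in WT and 6.37 and 5.31 in R141C at day 6. Mirg read 2.87 and 3.90 in WT and 4.04 and 2.80 in R141C at day 0, and 3.70 and 3.88 in WT and 4.50 and 3.87 in R141C at day 6. The 6 members with gaps of more than 1 in both day 0 groups (Igf2, Cdkn1c, Meg3, Mirg, Grb10 and Sfmbt2) all had gaps of opposite sign in the 2 groups. Of the 809 genes of the whole table with such gaps, 37.8% had the same sign and the rest the opposite. Replicate numbers are only names, so the sign itself has no meaning. Across the 41 members, replicate gaps (replicate 2 minus replicate 1) in WT day 0 and R141C day 0 had a correlation of -0.71, against -0.14 across all genes, and those in R141C day 0 and R141C day 6 had 0.68 against 0.34. WT day 0 and R141C day 6 had -0.63 against -0.06. For WT day 6 the values were -0.67 against 0.07 with R141C day 6, 0.41 against 0 with WT day 0, and -0.3 against 0.08 with R141C day 0. How far a few genes with large gaps set these correlations was not tested. These correlations run across genes, which are not independent replicates.

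R141C day 6 replicate 1 stood apart most. It lay more than 1 beyond the other 3 day 6 arrays for 11 members (26.8%) and 5.45% of all genes: below them for Igf2, Cdkn1c, Slc22a18, Zim1, Ndn, Dlk1, Dio3, Nnat, Grb10 and Rasgrf1, and above them for Peg10. R141C day 6 replicate 2 did so for 6 members (14.6% against 1.36%), above for Igf2, Phlda2, Slc22a18, Zim1 and Grb10 and below for Nap1l5. The day 6 difference of Dlk1 between genotypes was -1.03 on all arrays (adjusted p = 0.844). It was -3.25 without R141C day 6 replicate 2, the only member then called (adjusted p = 0.0200), and 1.19 without R141C day 6 replicate 1 (adjusted p = 0.465), so its sign turned with the culture left out. In these fits the lone R141C array is assumed to vary like the other groups. Without replicate 1 no member was called, and the median difference of the members turned from -0.16 to 0.08.

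Some markers of other cell types moved with these gaps outside WT day 6. The 7 fibroblast or feeder markers had a summed log2 signal of 5.05 and 3.67 in WT and 3.56 and 5.70 in R141C at day 0, and 4.90 and 5.64 in WT and 4.57 and 6.22 in R141C at day 6. Of them 6 were higher in WT day 0 replicate 1 than in replicate 2, 6 higher in R141C day 0 replicate 2 than in replicate 1, and 7 higher in R141C day 6 replicate 2 than in replicate 1. Each of the 7 was well above background on at least 1 array of every group. The 7 visceral endoderm markers went the same way for 6, 6 and 5 genes, with summed signals of -0.35 to 0.18 at day 0 and 4.37 to 5.70 at day 6, and in each day 0 group 2 of them were not well above background on either array. Of the 8 cardiac markers 8, 4 and 8 did so. The blood markers (4, 2 and 0 of 5) and endothelial markers (3, 1 and 1 of 4) did not follow the gaps in all 3 groups. Nor did the pluripotent (2, 0 and 3 of 8), neural (3, 1 and 4 of 5) and trophoblast markers (2, 1 and 2 of 4). In WT day 6, 6 of the fibroblast, 5 of the visceral endoderm and 7 of the cardiac markers were higher in replicate 2. There Igf2, Cdkn1c and Grb10 had gaps of -0.16, -0.58 and -0.88 (replicate 2 minus replicate 1). The part of these markers in the gaps was not tested.

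**Figure D4:**
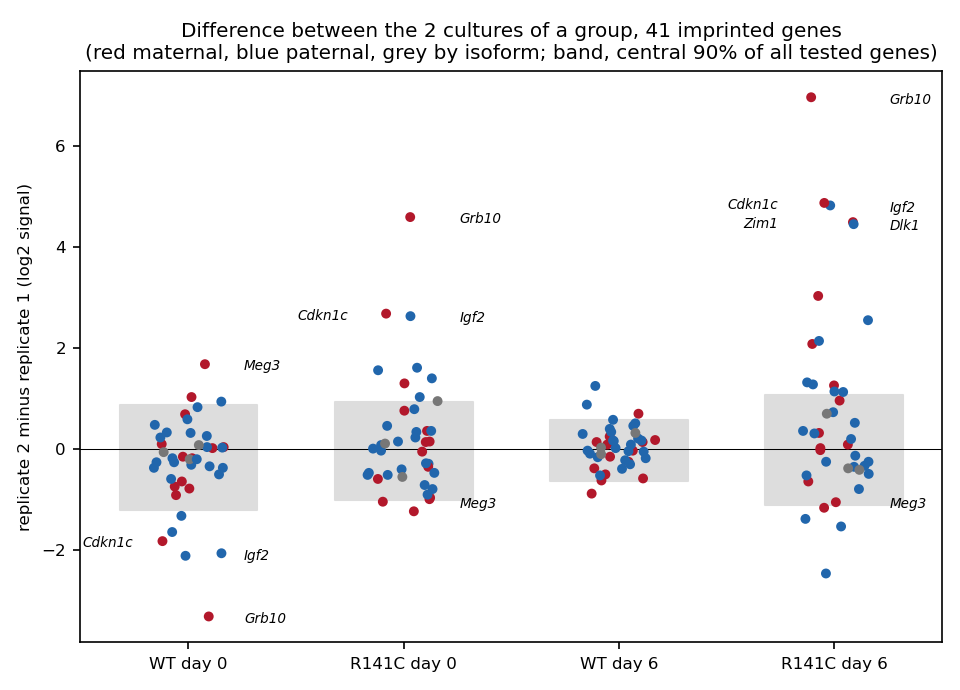
Difference between the 2 cultures of each group (replicate 2 minus replicate 1, log2 signal) for 41 imprinted genes, red for maternal, blue for paternal and grey for isoform-dependent; grey bands hold the central 90% of all tested genes. Grb10 lies at -3.31 in WT day 0, 4.59 in R141C day 0 and 6.96 in R141C day 6, with Cdkn1c and Igf2 on the same side each time and Meg3 on the other.

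A single probe of Mirg went against the other 2 between genotypes. Probe A_55_P2048867, the first of the Mirg sequences printed above, read 2.26 and 4.14 in WT and 0.04 and 1.41 in R141C at day 0, and 3.41 and 3.15 in WT and -1.20 and -1.04 in R141C at day 6. All 4 R141C arrays were below all 4 WT arrays. It was 2.47 lower in R141C at day 0 (R141C minus WT, -2.47) and 4.40 lower at day 6 (-4.40), while the other 2 probes were 0.04 and 0.14 higher at day 0 and 0.40 and 0.50 higher at day 6. Of the 3 probes it has the lowest position on the plus strand, and whether it lies within the gene was not worked out. It was chosen for description after its values were seen. It was not the probe used for Mirg in the tests, and the gene itself is not called from it.

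**Figure D5:**
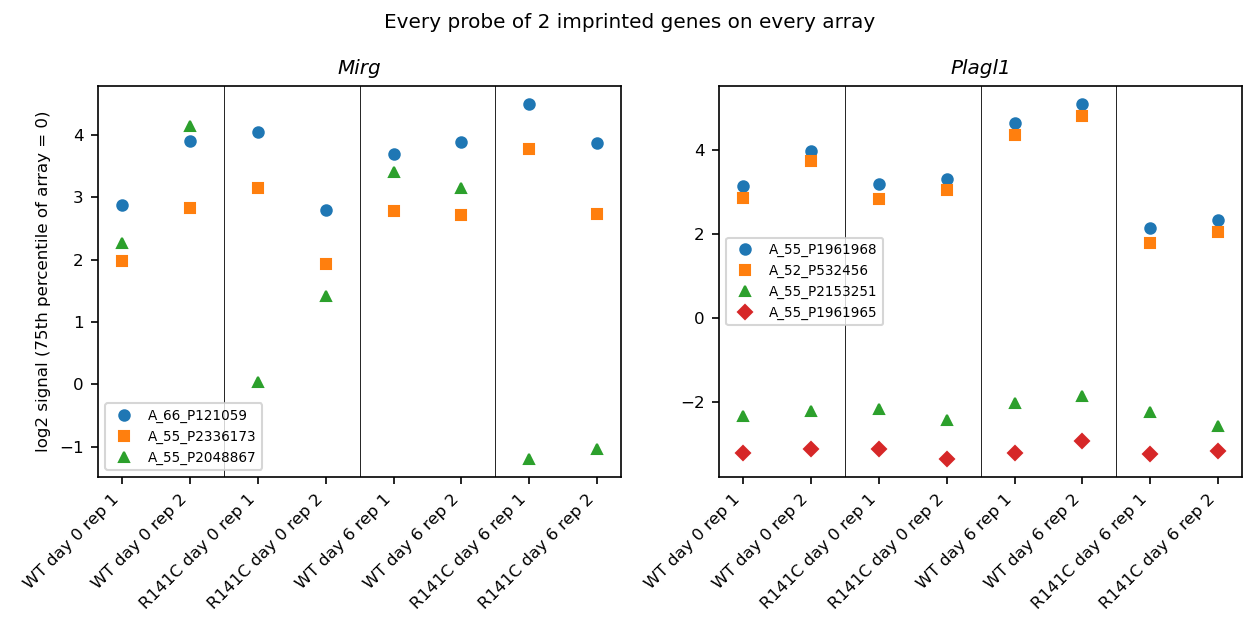
Log2 signal of every probe of Mirg (left, 3 probes) and Plagl1 (right, 4 probes) on each of the 8 arrays. The triangles of Mirg, probe A_55_P2048867, fall to -1.20 and -1.04 in R141C at day 6 while the other 2 probes do not, and of Plagl1 the 2 bright probes are low in R141C at day 6 while the 2 dim ones have means of -2.22 and -3.16 over the 8 arrays.

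Of 13 genes of imprint maintenance, 4 fell and 1 rose in both genotypes, with medians of -0.34 in WT and -0.28 in R141C. That is 38.5% called, against 24.0% of all genes in WT (12.9% falling) and 15.6% in R141C (8.03% falling). Dnmt3l, the cofactor of new DNA methylation, read 6.01 and 5.70 in WT and 5.47 and 5.11 in R141C at day 0, and 1.42 and 1.07 in WT and 2.08 and 0.82 in R141C at day 6. Its difference was -4.61 in WT (SE 0.42, adjusted p = 0.000994) and -3.84 in R141C (SE 0.42, adjusted p = 0.00277). Zfp57 also fell (-2.89 in WT and -2.03 in R141C), as did Tet1, which oxidizes methylated cytosine (-2.42 and -2.09). The fourth was Trim28, the corepressor that ZFP57 recruits (-1.21 and -1.06), which was named after its values were seen and whose probes averaged together gave 0.19 and 0.22, not past the threshold. Dnmt3a, a DNA methyltransferase, rose by 1.75 in WT and 1.70 in R141C.

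Of 14 genes of the insulin-like growth factor axis that are not imprinted, 5 rose and 2 fell in each genotype (50% called, against 24.0% and 15.6% of all genes). Igfbp5, which encodes a binding protein, rose by 6.53 in WT (SE 0.47, 92.4-fold, adjusted p = 0.000562) and 4.31 in R141C (SE 0.47, 19.8-fold, adjusted p = 0.00295). Igfbp4 rose by 3.54 and 2.33 and the insulin receptor Insr by 2.22 and 2.23. Igfbp1 rose by 3.64 in R141C, and its 1.79 in WT did not pass (adjusted p = 0.111). Of 33 other imprinted genes tested, 1 rose and 2 fell in WT and 3 rose and 2 fell in R141C, with medians of 0.12 and -0.03. These are 9.09% and 15.2% called, at or below the 24.0% and 15.6% of all genes. Cobl, an actin nucleator, fell in both (-3.42 and -3.33), as did the adaptor Gab1 (-1.63 and -2.11). Klf14, a transcription factor, rose by 2.25 in R141C (adjusted p = 0.0302). Slc22a2, a cation transporter in the Igf2r region, was called higher in both genotypes but was well above background only on both R141C day 6 arrays, where it was at least 5.7-fold higher than in R141C at day 0 (adjusted p = 0.000745). That bound sets the day 6 mean against the lowest signal well above background on each day 0 array, or the probe's own signal where higher.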

How the data were processed

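RNA of 8 cultures was hybridized as Cy3-labelled cRNA to single-colour Agilent arrays, 1 per culture. Per the file headers the scanner files came from Feature Extraction 11.5.1.1, and per the submitters' processing notes from 10.5.1.1. The deposited processed signal is a linear intensity, background-subtracted by the authors' software and not normalized between arrays. The deposited series matrix holds log2 values from the authors. Its filter and scaling are not given in the sources used here. Deposited spot flags (other) mark outliers and spots well above background.

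Outlier spots were left out, spots of a probe averaged, and log2 signals shifted to a 75th percentile of 0. The brightest probe stood for a gene, tested where well above background on both arrays of a group (25892 of 34736 names). A model with a mean for each of the 4 groups was fitted to the 8 arrays in limma 3.58.1 (R 4.3.3), with 4 residual and 2.70 prior degrees of freedom, two-sided tests and Benjamini-Hochberg adjustment over 25892 genes. Called means an adjusted p under 0.05. Precision is limited by the number of arrays. Scripts were tested on simulated data. Replicate numbers were not taken to pair the cultures, since not every pair of groups correlated (deviations, -0.136 between both day 0 groups to 0.339 between both R141C groups). Python 3.11.15 and matplotlib 3.10.9 drew the figures.

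All 42 members were accounted for. Values on every array were given for each called member and at least 1 member per cluster, and lists were given by counts with up to 4 called genes. The members and lists were chosen with earlier results of these data known. Settings tried besides were a shift to the median, quantile normalization, normexp with an offset of 50, the series matrix, no filter, a filter on all 8 arrays, trend and robust eBayes, only the arrays compared, the mean of probes, a minimum fold of 2, a replicate block, leaving out each array, and the allele classes without tissue-dependent members. Crossed replicate numbers at day 0 were added after the data had been seen.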

Additional observations from a re-analysis of the deposited data

Results flagged for a closer look

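For 5 members the groups did not overlap and moved in opposite directions under the same contrast. Plagl1 was higher at day 6 on both WT arrays and lower on both R141C arrays, and the test of the difference in limma gave -2.33 on the log2 scale (adjusted p = 0.516). R141C lay above WT at day 0 and below it at day 6 for Airn (-2.07, adjusted p = 0.875), Peg3 (-1.06, adjusted p = 0.874), Usp29 (-1.14, adjusted p = 0.724) and Sgce (-1.02, adjusted p = 0.755). None of these 5 differences passed the threshold. The values are those of the brightest probe of each gene. At day 6 the genotypes overlapped on the second Peg3 probe, with a difference of -0.04. For Airn the closest day 6 arrays read 1.5 in WT and 1.49 in R141C. Its probes A_55_P2055199 and A_51_P418809 overlapped between genotypes at day 6.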

How the results depend on the processing

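Over 1567 values of 83 printed differences under other settings, 1451 kept their direction and side of the threshold, 93 lost a call, 18 gained one and 5 changed direction. Some of this agreement was fixed in advance. The minimum fold of 2 could not change a direction. Leaving out an array outside a comparison leaves its difference as it was while the same probe is used. With the mean of the gene's probes Inpp5f in WT turned to -0.11 and Trim28 to 0.19 in WT and 0.22 in R141C. Under that setting the R141C call of Inpp5f was lost. Leaving out 1 array each, Zim1 in R141C ran from -1.34 to 3.15 and Dlk1 between genotypes at day 6 from -3.25 to 1.19, with the ends set by which R141C day 6 culture was left out. The count of members called from day 0 to day 6 in WT (14) was 12 to 16 under the settings that kept all 8 arrays or used only the arrays compared, and 7 to 16 leaving out 1 array each. In R141C (11) it was 7 with only the arrays compared, 9 to 12 under the other settings with all arrays, and 5 to 13 leaving out 1 array each. With the replicate block it was 15 in WT, where Ascl2 became a lower call, and 12 in R141C, where Plagl1 did. With the block 0 members were called between genotypes at either day. For R141C against WT at day 6 the count of 0 stayed 0 under all settings but 1 (0 to 1 leaving out 1 array each). The count over all genes there went from 17 to 5 with normexp, to 1 with the deposited series matrix, to 0 with no filter, a filter on all 8 arrays, trend and robust eBayes, only the arrays compared or the block, and ran from 0 to 273 leaving out 1 array each, the highest without R141C day 6 replicate 2. At day 0 and for the difference in change between genotypes, which needs all 4 groups and so was not run on fewer groups, no member was called under any setting run, and the crossed replicate block at day 0 gave 0. Sgce in R141C was the least stable call, kept under 8 of 19 settings. Dim members such as Rasgrf1 and Nap1l5 are limited by signal over background.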
